A study of Homo sapiens with 4 samples.

Results

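The 162 genes described here are the expressed members of the numbered ZNF family of zinc finger proteins in 2 human cell lines, 293T and A549, with and without exposure to a magnetic field. They are the protein-coding rows of the deposited expression table whose symbol is ZNF followed by a number and whose mean over all 12 libraries was at least 3 FPKM. FPKM counts fragments scaled to transcript length and library size, so it is a level per unit of length. The table has 26348 rows, of which 465 are protein-coding ZNF genes of that form. The members were thus chosen by their measured mean level, and their levels are given as a description. The 293T line is a transformed human embryonic kidney epithelial line, and A549 is a human non-small cell lung cancer line. Each line had a group exposed to a magnetic field for 2 h and a control group kept without a field, and each group had 3 libraries of poly(A)-selected RNA. The labels name neither the strength nor the kind of field nor the time of RNA collection. They also do not say whether a group's libraries are separate cultures, so each p-value reflects library-to-library spread that could be technical only.

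Most ZNF proteins bind DNA through arrays of C2H2 fingers, short loops folded around a zinc ion held by a pair of cysteines and a pair of histidines, and each finger reads a few neighbouring bases. Many also carry a KRAB box, which recruits the corepressor TRIM28 (KAP1) and with it the histone methyltransferase SETDB1 and heterochromatin proteins, and the best known targets of such proteins are transposable elements. The genes arose by repeated tandem duplication, and in the human genome large clusters of them lie on chromosome 19. Some proteins that carry the ZNF name have other tasks in splicing, ribosome assembly or ubiquitin transfer, and a few are not C2H2 proteins at all.

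The repeating unit that names the family is visible in the coding sequences of ZNF227 and ZNF146, shown because ZNF227 had the largest difference in response between the lines and ZNF146 was among the most highly expressed members and was called in neither line. Each line below is 1 finger of 84 bases on the plus strand of GRCh38, in the reading frame, with the codons of the 2 cysteines and the 2 histidines that hold the zinc in capitals. The ZNF227 fingers lie at chr19:44235400-44235483, chr19:44235484-44235567 and chr19:44235568-44235651, and those of ZNF146 at chr19:36236486-36236569, chr19:36236570-36236653 and chr19:36236654-36236737.
ZNF227 finger 2: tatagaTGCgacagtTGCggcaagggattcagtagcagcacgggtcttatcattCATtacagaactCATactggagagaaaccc
ZNF227 finger 3: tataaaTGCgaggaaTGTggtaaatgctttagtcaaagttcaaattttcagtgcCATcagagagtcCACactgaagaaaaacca
ZNF227 finger 4: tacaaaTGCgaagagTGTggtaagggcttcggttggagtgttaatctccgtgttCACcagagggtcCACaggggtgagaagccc
ZNF146 finger 1: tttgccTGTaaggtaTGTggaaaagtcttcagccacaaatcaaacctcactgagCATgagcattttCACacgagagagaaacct
ZNF146 finger 2: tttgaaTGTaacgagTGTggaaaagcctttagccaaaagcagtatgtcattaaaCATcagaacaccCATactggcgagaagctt
ZNF146 finger 3: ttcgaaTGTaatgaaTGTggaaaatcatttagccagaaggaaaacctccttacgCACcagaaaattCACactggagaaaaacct
The fingers shown follow each other without a gap, and pairs within a gene were identical at 58.3% to 65.5% of bases in ZNF227 and at 64.3% to 72.6% in ZNF146. A pattern search of the GENCODE 29 coding sequences, available for 161 of the 162 members, found 1450 fingers, a median of 9 per gene and from 0 to 31. The 5 members without a match were ZNF185, an actin-associated LIM protein, ZNF330, ZNF503, ZNF703 and ZNF839. A KRAB box was found in 64 members. The exons of 75 members share bases with another annotated gene, and in 41 of them the shared part exceeds 10% of exon bases. The labels do not say if counting was strand-aware, so values of such genes are uncertain, as are those of near-identical neighbours.

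Several members also share a sequence just before their start. The run TTCTGGGAA, searched on both strands in the 250 bases before the RefSeq start on GRCh38.p14, was found in 13 of the 140 members with a promoter in that table, or 9.29%. It was in 0.938% of 7358 other protein-coding genes at 3 FPKM or more and in 0.991% of all 15843 protein-coding promoters, and it was picked after these sequences had been read. Below are the last 150 bases before the start, 5′ to 3′ on the gene's own strand, for the 6 of the 13 that were among the largest rises or falls. Capitals mark TTCTGGGAA, the ETS motif CCGGAAGT and the ZNF143 motif, either strand, and in ZNF180 TTCTGGGAA and the ZNF143 motif overlap.
ZNF302, chr19:34677528-34677677, plus strand: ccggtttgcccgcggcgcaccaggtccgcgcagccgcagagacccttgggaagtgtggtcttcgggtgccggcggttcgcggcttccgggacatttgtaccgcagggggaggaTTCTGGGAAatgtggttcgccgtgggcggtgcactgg
ZNF180, chr19:44500523-44500672, minus strand: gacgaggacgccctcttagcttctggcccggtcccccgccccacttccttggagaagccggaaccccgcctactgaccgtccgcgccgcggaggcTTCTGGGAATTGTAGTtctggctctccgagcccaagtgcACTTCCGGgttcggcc
ZNF71, chr19:56595152-56595301, plus strand: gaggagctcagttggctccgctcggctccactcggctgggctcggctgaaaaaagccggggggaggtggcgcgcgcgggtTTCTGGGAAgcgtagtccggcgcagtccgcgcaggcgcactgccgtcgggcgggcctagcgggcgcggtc
ZNF227, chr19:44212382-44212531, plus strand: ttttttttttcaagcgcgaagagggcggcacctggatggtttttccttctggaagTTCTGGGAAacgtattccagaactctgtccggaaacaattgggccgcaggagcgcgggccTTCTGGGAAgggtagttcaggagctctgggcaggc
ZNF24, chr18:35344421-35344570, minus strand: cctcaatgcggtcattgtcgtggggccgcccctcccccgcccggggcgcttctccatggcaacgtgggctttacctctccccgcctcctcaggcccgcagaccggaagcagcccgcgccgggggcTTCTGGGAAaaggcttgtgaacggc
ZNF184, chr6:27473106-27473255, minus strand: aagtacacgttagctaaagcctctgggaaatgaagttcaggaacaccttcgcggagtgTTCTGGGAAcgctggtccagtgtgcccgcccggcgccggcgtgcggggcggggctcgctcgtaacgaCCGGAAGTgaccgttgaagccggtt
The 6 did not respond alike: ZNF302, ZNF180 and ZNF71 fell in A549, while ZNF227, ZNF24 and ZNF184 rose there. Over all 13 promoters, 5 belonged to members that rose in A549, 5 to members that fell and 3 to members not called. The promoters searched in these classes numbered 37, 36 and 67. In 293T the corresponding counts were 3 of 38, 4 of 29 and 6 of 73. Of all genes tested, 13.3% rose and 26.9% fell in A549, and 13.7% and 24.2% in 293T. The ETS motif was in 15.7% of member promoters against 8.56% of the other genes, and the ZNF143 motif in 11.4% against 4.46%. The heat shock element was found in 0 of the 140, and in 0.272% of the other genes. A match describes the letters only.

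The recovered depth was even, from 37171616 to 38883963 counts per library, and mitochondrially encoded genes took 4.37% to 9.28% of counts. Every member was above 0 in every library, and the lowest recovered count of a member in a library was 7. The epithelial keratin KRT7 stood at 604 FPKM in control A549 and 0.642 in control 293T, and the neurofilament gene NEFM at 0.0407 and 42.4. The lung markers NKX2-1 and SFTPC were at 0.0108 and 0 FPKM in control A549 and at 0.947 and 0 in control 293T. The kidney markers PAX2 and PAX8 were at 0.587 and 0.00855 in control 293T and at 0.170 and 0.233 in control A549. NKX2-1 and PAX8 were thus higher in the line they are not meant to mark. Of the markers of other cells, CD68 stood at 23.6 FPKM in control and 22.4 in exposed A549, and at 2.37 and 2.21 in 293T. COL1A1 stood at 1.69 ± 0.137 FPKM in control and 2.80 ± 0.715 in exposed A549, and at 2.29 ± 0.132 and 1.98 ± 0.0413 in 293T, and its part in the results was not tested. The other 7 were below 0.03 in all groups. On the first principal component of the members' values within a line, which held 71.0% of the variance in A549 and 79.6% in 293T, the third exposed library lay nearest to the controls in both lines. Exposed A549 libraries were at 1.29, 1.60 and 1.07 and those of 293T at 1.61, 1.57 and 0.914, with all controls between -1.60 and -1.16.

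In unexposed cells the members stood at a median of 4.69 FPKM in A549 and 6.84 in 293T, and their summed level was 1094 ± 9.49 FPKM against 1799.8 ± 4.96 (SD, n = 3 libraries each). Control A549 was lower than control 293T for 113 members and higher for 26, by limma on log2(FPKM + 1) at a Benjamini-Hochberg adjusted p of 0.05 or less. Of all 13811 genes tested, 88.3% differed, 55.9% lower and 32.4% higher in A549. All A549 control libraries were below all 293T controls for 114 members and for 56.4% of all genes tested, and above them for 27 and 33.2%. The median log2 difference was -0.43 for the members and -0.25 for all genes tested. A gene could enter the list through 1 line alone: 125 members were at 3 FPKM or more in both controls, 33 in the 293T control only, 3 in the A549 control only and 1 in neither.

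**Figure D1:**
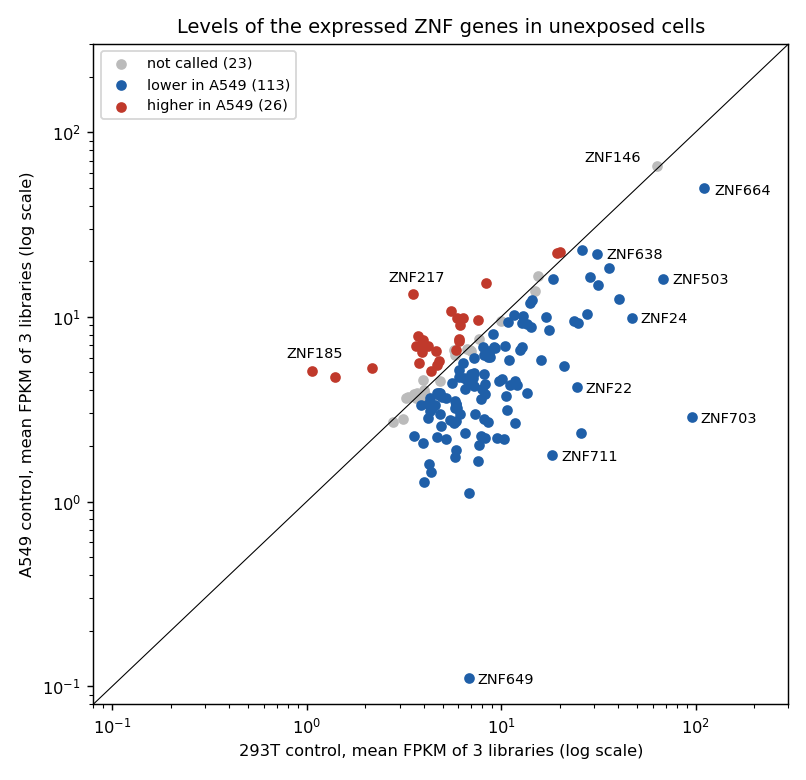
Mean FPKM of the 162 members in control 293T (horizontal, log scale) against control A549 (vertical, log scale), each point 1 gene and the line marking equal levels. Most points lie below the line, ZNF703 stands at 95.2 and 2.85 FPKM, and ZNF649 at 6.80 and 0.110.

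The most highly expressed members over all libraries were ZNF664, ZNF146, ZNF703, ZNF503, ZNF24 and ZNF638, at mean levels of 85.7, 65.3, 49.2, 43.8, 33.4 and 29.5 FPKM. ZNF703, a corepressor amplified in luminal breast cancer, had 98.1, 91.7 and 95.8 FPKM in the 293T controls and 2.84, 2.61 and 3.11 in the A549 controls. Its relative ZNF503 had 69.3, 66.2 and 69.0 FPKM in the 293T controls and 16.5, 15.4 and 16.3 in A549. ZNF146, a protein built of fingers alone, stood at 63.2 ± 3.97 FPKM in 293T and 65.7 ± 1.42 in A549, with a log2 difference of 0.06 (SE 0.04, adjusted p = 0.21, limma). On log2(FPKM + 1) the largest differences toward 293T after ZNF703 (-4.64) were ZNF589 (-2.99), ZNF649 (-2.81), ZNF711 (-2.80) and ZNF22 (-2.30). This order rests on the pseudocount of 1: with 0.1, ZNF649 came first at -5.07 and ZNF703 second at -5.01. ZNF711 is an X-linked partner of the histone demethylase PHF8. ZNF217, an amplified breast cancer oncogene and part of corepressor complexes, led in the other direction at 13.2 ± 0.227 FPKM in A549 and 3.53 ± 0.0528 in 293T, followed by ZNF185 (1.57), ZNF488 (1.25), ZNF319 (0.99) and ZNF219 (0.92). With a pseudocount of 0.1, ZNF185 (2.17) was above ZNF217 (1.88). At the edge of the rule, ZNF449, ZNF71 and ZNF185 had means of 3.00, 3.02 and 3.07 FPKM, while ZNF765, ZNF616 and ZNF771 fell just outside at 2.98, 2.98 and 2.96.

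After exposure members were called in both directions, by small amounts. In A549, 40 members rose and 42 fell, beside 40.2% of all genes tested that were called, 13.3% that rose and 26.9% that fell, and the remaining 80 did not pass the test. In 293T, 42 rose, 35 fell and 85 did not pass, beside 38.0% of all genes tested that were called, 13.7% that rose and 24.2% that fell. No member changed by more than 1 log2 unit: the range was -0.46 to 0.64 in A549 and -0.55 to 0.49 in 293T. The median log2 fold change of the members was -0.02 in A549 and 0.03 in 293T, and that of all genes tested -0.04 and -0.03. The balance of rises and falls depended on the scaling: after quantile normalization 55 members rose and 20 fell in A549 and 53 and 23 in 293T, and after median centring the counts were 55 and 25 and 51 and 28. Mitochondrial genes took 7.69% to 7.96% of counts in exposed A549 and 8.35% to 9.28% in its controls, and 4.37% to 4.45% and 4.85% to 5.21% in 293T. With the sum set without them, 33 members rose and 54 fell in A549 and 36 and 36 in 293T. The median of the members in A549 was 0.04 with each of the first 2 scalings. Without the third exposed library of both lines 35 rose and 40 fell in A549 and 38 and 32 in 293T. Scaling moved all genes tested as well, and not the members alone. Their median in A549 and 293T was -0.006 and -0.003 after quantile normalization and 0.019 and -0.004 after median centring. It was -0.066 and -0.047 with the sum without mitochondrial genes.

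The summed level of the members went from 1094 ± 9.49 to 1113 ± 8.39 FPKM in A549 and from 1799.8 ± 4.96 to 1897 ± 17.5 in 293T. In 293T, ZNF664 added 16.8 FPKM, ZNF24 16.2 and ZNF503 10.7 to a net change of 97.6, shares of 17.2%, 16.6% and 10.9%, and the rest was spread over the other members. Of all genes tested, 13.3% rose and 26.9% fell in A549 and 13.7% and 24.2% in 293T. The 36 members at a mean of 10 FPKM or more counted 12 rises and 8 falls in A549 (33.3% and 22.2%). In 293T they counted 14 and 4 (38.9% and 11.1%). The 61 members between 3 and 5 FPKM counted 10 and 23 in A549 (16.4% and 37.7%). In 293T the 61 counted 12 and 19 (19.7% and 31.1%). After quantile normalization the counts of the 61 became 15 and 11 in A549 and 15 and 15 in 293T. Without mitochondrial genes those of the 36 became 7 and 11 in A549.

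Of the members called, 23 rose in both lines, beside 6.32% of all genes tested. They are 57.5% of the members' rises in A549 and 54.8% of those in 293T, and for the other protein-coding genes at 3 FPKM or more the same shares were 50.0% and 49.4%. Another 22 fell in both, beside 14.2% of all genes. They are 52.4% of the A549 falls and 62.9% of the 293T falls, against 58.2% and 64.2% for the other genes. ZNF227 and ZNF337 rose in A549 and fell in 293T, beside 0.471% of all genes, and ZNF503 did the reverse, beside 0.637%. Another 51 were called in neither line. Across the 162 genes, which are not independent replicates, Pearson's r between the 2 lines' fold changes was 0.61 and Spearman's rho 0.64. For the 8820 other protein-coding genes at 3 FPKM or more the values were 0.66 and 0.61. The 2 lines have separate controls.

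**Figure D2:**
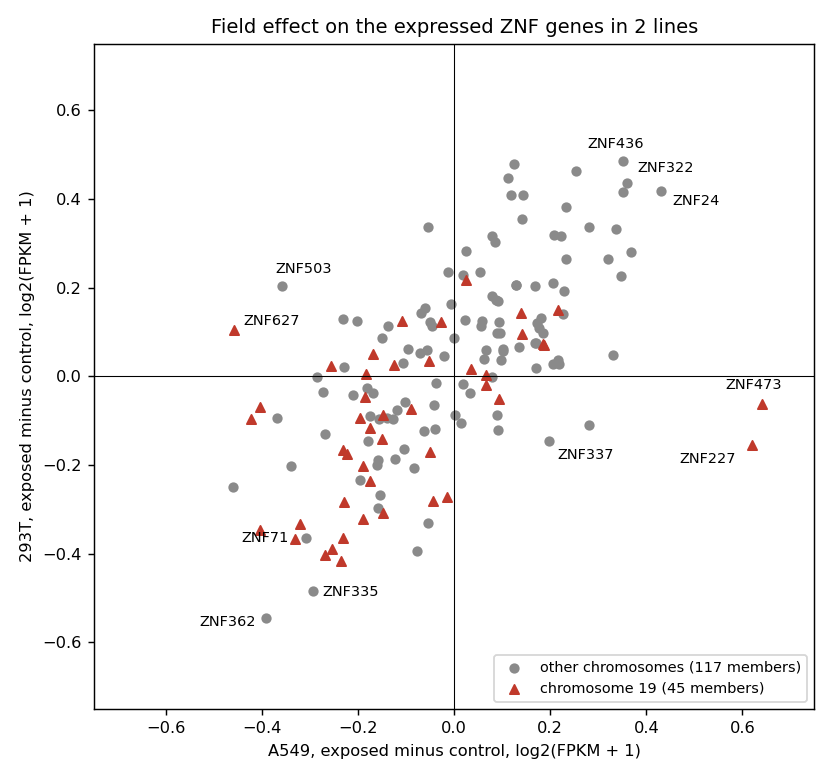
Log2 fold change of each member on exposure in A549 (horizontal) and in 293T (vertical), on log2(FPKM + 1), with triangles for the 45 members on chromosome 19 and circles for the other 117. Most points lie along the diagonal, ZNF227 and ZNF473 stand apart at the right and ZNF503 at the upper left.

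Among the rises common to both lines, ZNF24 was the largest of the abundant members. ZNF24 is a SCAN-domain factor known as a repressor of VEGF transcription (chr18:35332227-35344420). It had 10.8, 9.40 and 9.53 FPKM in the A549 controls and 13.6, 14.2 and 13.3 after exposure, and 45.3, 47.3 and 48.2 against 66.9, 63.7 and 58.9 in 293T. Exposed and control libraries did not overlap in either line, and the log2 fold changes were 0.43 (SE 0.06, adjusted p = 0.00010) and 0.42 (SE 0.06, adjusted p = 0.00020, limma). ZNF436, a KRAB member on chromosome 1, had 3.40, 4.25 and 3.82 FPKM in A549 controls and 4.97, 5.34 and 5.11 after exposure. In 293T it had 3.49, 3.66 and 3.48 against 5.28, 5.53 and 5.29, with changes of 0.35 and 0.49 in the 2 lines. All 6 exposed libraries were above all 6 controls for this gene. ZNF322 and ZNF184, which lie less than a megabase apart in the part of chromosome 6 that also holds the main histone gene cluster, rose by 0.36 and 0.35 in A549 and by 0.44 and 0.42 in 293T. ZNF343 rose by 0.37 and 0.28, and ZNF664, the most abundant member, by 0.17 and 0.20. ZNF664 had 50.3, 49.2 and 50.3 FPKM in A549 controls and 56.3, 55.4 and 57.0 after exposure, a small change that was still larger than the spread. ZNF594 rose by 0.25 and 0.46.

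The falls common to both lines were led by ZNF362 on chromosome 1 (chr1:33127522-33300719). It had 6.78, 6.89 and 6.63 FPKM in 293T controls and 4.31, 4.07 and 4.59 after exposure, and in A549 4.03, 4.72 and 4.53 against 3.10, 2.89 and 3.43. The log2 fold changes were -0.55 (SE 0.06, adjusted p = 8.1e-05) in 293T and -0.39 (SE 0.06, adjusted p = 0.00038, limma) in A549, with no overlap of libraries in either line. ZNF335, a component of a histone H3 lysine methyltransferase complex that is mutated in a form of microcephaly, had 8.57, 8.90 and 8.39 FPKM in 293T controls and 6.17, 5.54 and 5.93 after exposure. In A549 it had 6.98, 6.17 and 6.49 against 5.24, 4.73 and 5.51. Its libraries did not overlap in either line, and its changes were -0.48 and -0.29. ZNF580 fell by 0.41 in A549 and 0.35 in 293T, and shares 15.1% of its exon bases with CCDC106 and ZNF581. ZNF71 fell by 0.33 and 0.37, ZNF629 by 0.34 and 0.20, and ZNF251 by 0.46 and 0.25. ZNF76, a close relative of ZNF143 that binds the same motif, fell by 0.31 in A549 and 0.37 in 293T. ZNF134, ZNF266, ZNF551 and ZNF586, all on chromosome 19, fell by 0.39, 0.37, 0.40 and 0.42 in 293T. Their falls in A549 were smaller, 0.25, 0.23, 0.27 and 0.24, and none of these 4 differences between the lines passed the test.

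The difference of the 2 field effects was tested directly. The A549 effect was higher than the 293T effect for 7 members and lower for 15, beside 5.51% and 7.03% of all genes tested. Most of these calls were in members that share exon bases with another gene. Among the 86 members with no exon overlap it was higher for 1 and lower for 4 (1.16% and 4.65%). The count of 15 was sensitive to the library set and the settings, with 5 without a filter on low values. It was 7, 5, 9, 6, 9 and 8 without, in turn, 293T control libraries 1 and 2, 293T exposed libraries 1 and 2 and A549 control libraries 2 and 3. ZNF227 had the largest difference (chr19:44207547-44237268, KRAB). It had 4.85, 4.77 and 5.01 FPKM in A549 controls and 7.93, 8.22 and 7.92 after exposure, but 7.23, 6.92 and 6.75 in 293T controls and 6.26, 6.08 and 6.14 after exposure. The groups did not overlap in either line, and the order was reversed between them. The changes were 0.62 (SE 0.04, adjusted p = 7.7e-07) and -0.15 (SE 0.04, adjusted p = 0.0076), and their difference was 0.77 (SE 0.05, adjusted p = 1.2e-05, limma). ZNF227 shares 19.1% of its exon bases with ZNF235.

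ZNF473, which binds the U7 snRNP and takes part in the 3′ end processing of histone mRNAs (chr19:50026005-50048776), rose in A549 only by the test. It had 5.45, 6.38 and 6.27 FPKM in A549 controls and 9.44, 11.2 and 9.28 after exposure, and 9.33, 8.87 and 8.13 against 7.92, 8.34 and 8.83 in 293T. The A549 groups were apart and the 293T groups overlapped. The changes were 0.64 (SE 0.08, adjusted p = 5.6e-05) and -0.06 (SE 0.08, adjusted p = 0.57), and the difference was 0.70 (SE 0.11, adjusted p = 0.0018, limma). ZNF503, a repressor active in the developing striatum (chr10:75279725-75401916), went the other way. It fell in A549 from 16.5, 15.4 and 16.3 FPKM to 11.5, 13.0 and 12.5 and rose in 293T from 69.3, 66.2 and 69.0 to 84.1, 79.4 and 72.9, again without overlap. Its difference was -0.56 (SE 0.08, adjusted p = 0.00095, limma), and 15.8% of its exon bases overlap the antisense gene ZNF503-AS2. The third gene called in opposite directions, ZNF337, rose by 0.20 in A549 and fell by 0.15 in 293T, and 73.8% of its exon bases overlap ZNF337-AS1. Its fall in 293T did not pass when any 1 of the 293T controls was left out.

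**Figure D3:**
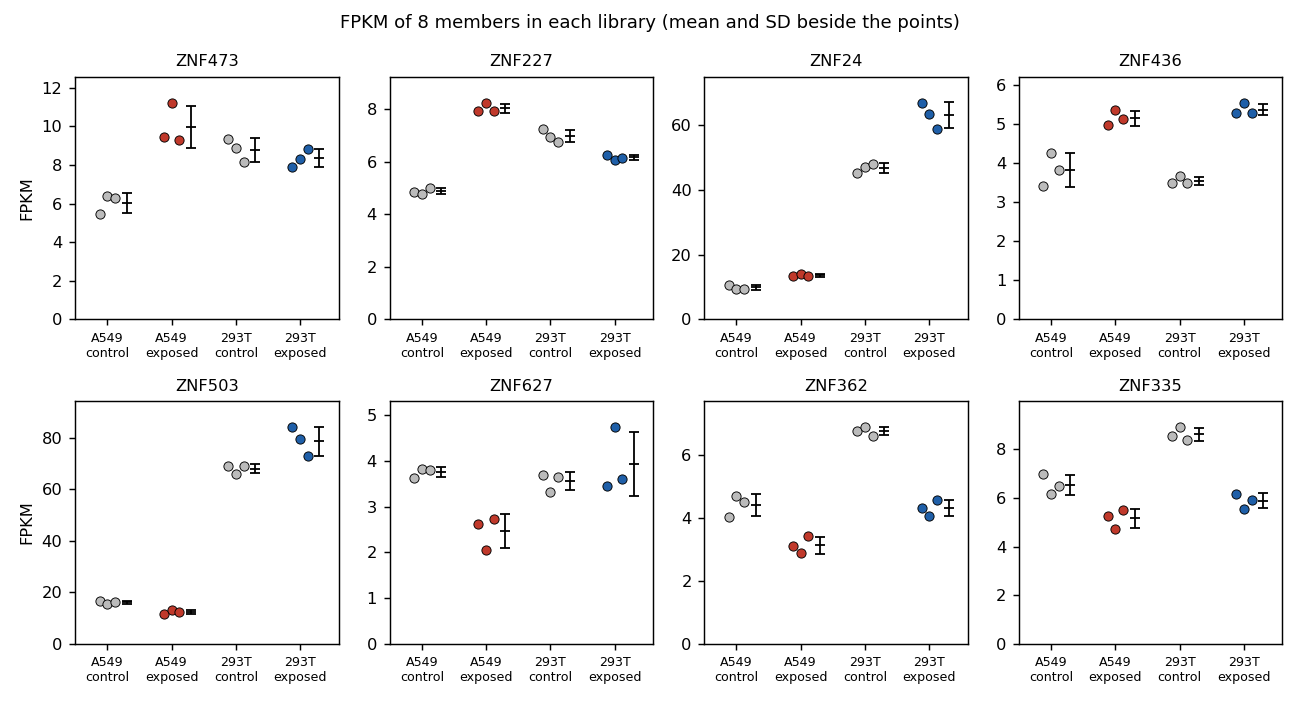
FPKM of 8 members in each of the 12 libraries (points, left to right replicates 1 to 3) with the mean and SD of each group of 3 beside them, and axes that start at 0. ZNF24 and ZNF436 are higher and ZNF362 and ZNF335 lower after exposure in both lines, ZNF473 is higher in A549 alone, and ZNF227 and ZNF503 move in opposite directions.

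Other members were called in 1 line only. ZNF627 had 3.63, 3.83 and 3.80 FPKM in A549 controls and 2.63, 2.04 and 2.74 after exposure, and its 293T libraries overlapped at 3.69, 3.33 and 3.65 against 3.45, 4.74 and 3.61. Its difference was -0.56 (SE 0.13, adjusted p = 0.018, limma). ZNF180 and the SCAN-domain factor ZNF174 fell by 0.40 and 0.37 in A549, and their differences from 293T were -0.33 and -0.28. ZNF302 fell by 0.42 in A549, and its difference of -0.33 did not pass (adjusted p = 0.062). In 293T alone, ZNF777 fell from 12.9, 12.9 and 11.6 FPKM to 8.99, 9.03 and 9.75, and ZNF22 rose from 24.9, 24.7 and 23.6 to 30.9, 33.9 and 28.5. Their differences were 0.32 and -0.39, and 45.3% of the exon bases of ZNF22 are shared with C10orf25 and CEP164P1. ZNF319 rose by 0.28 in A549 against -0.11 in 293T, a difference of 0.39, and ZNF711 fell by 0.23 against 0.13, a difference of -0.36. Its fall in A549 was not called in 9 of the alternatives, among them limma-voom and leaving out A549 control library 1 or 2 or exposed library 1 or 2. The differences of ZNF180, ZNF174 and ZNF711 each lost the call without any of several single libraries, 293T control libraries 1 and 2 among them for all 3. ZNF92 and ZNF367 rose by 0.48 and 0.45 in 293T and had 0.12 and 0.11 in A549, with differences that did not pass (adjusted p = 0.17 and 0.28, limma).

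The members were also counted by chromosome. Of the 45 on chromosome 19, 7 rose and 20 fell in A549 and 3 rose and 17 fell in 293T, with medians of -0.15 and -0.09. The 36 on the long arm counted 6 rises and 16 falls in A549 and 3 and 16 in 293T. The 9 on the short arm counted 1 and 4 in A549 and 0 and 1 in 293T, where their median was 0.02. Of the 117 members on other chromosomes, 33 rose and 22 fell in A549 and 39 and 18 in 293T, with medians of 0.03 and 0.07. The 18 falls became 10 without 293T control library 1. Falls also outnumbered rises among the 523 other protein-coding genes at 3 FPKM or more on chromosome 19: 57 rose and 202 fell in A549 and 38 and 220 in 293T, with medians of -0.08 and -0.09. Rises on chromosome 19 went from 7 to 2 in A549 without exposed library 2, to 3 and 4 without control libraries 2 and 1, and from 3 to 0 in 293T without control library 2 and 1 without either other control. In shares, 44.4% of the members on chromosome 19 fell in A549 against 38.6% of these other genes, and 37.8% against 42.1% in 293T. On other chromosomes 28.2% of members rose in A549 and 33.3% in 293T, against 15.9% and 16.3% of 8297 other genes. No test was made of these differences in share. Scaling changed the A549 counts of members on chromosome 19 to 8 and 8 after quantile normalization, 9 and 10 after median centring and 4 and 25 without mitochondrial genes. Their median stayed below 0 in both lines under those 3 scalings and TPM, between -0.18 and -0.06. For the members on other chromosomes, quantile normalization gave 47 rises and 12 falls in A549 and 50 and 9 in 293T, and median centring 46 and 15 in A549.

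**Figure D4:**
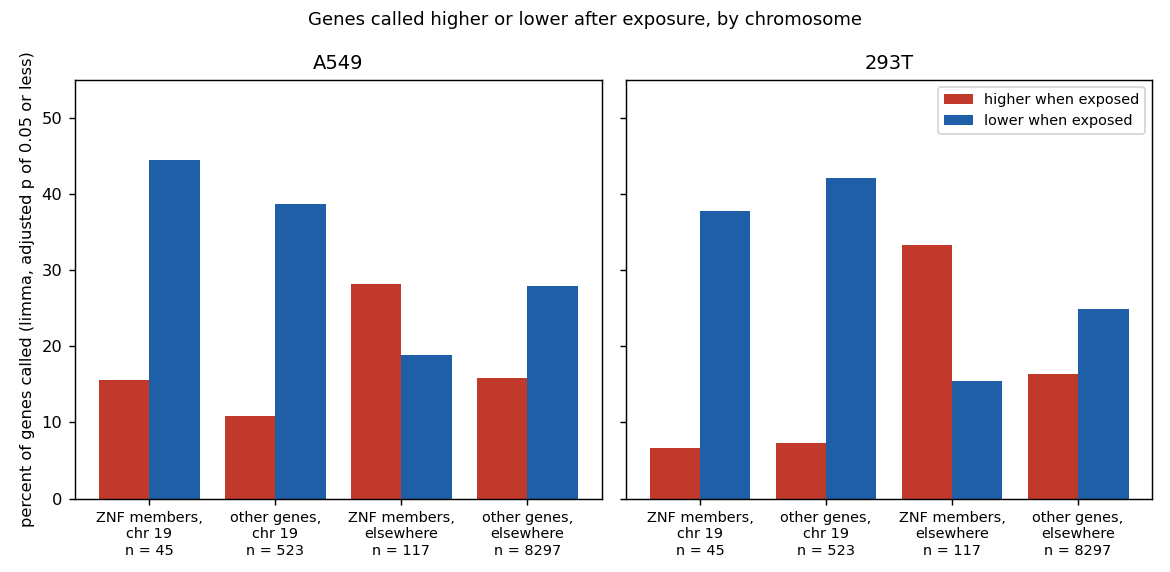
Percent of genes called higher (red) and lower (blue) after exposure in A549 and in 293T, for members and for other protein-coding genes at 3 FPKM or more, on chromosome 19 and elsewhere, with the number of genes under each pair of bars. On chromosome 19 the blue bar is the taller for members and for other genes, and elsewhere the red bar is the taller for members.

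Of the 23 members that rose in both lines only ZNF507 is on chromosome 19, and of the 22 that fell in both 12 are. The rises of ZNF507, 0.14 in each line, were not called in 9 alternatives in A549 and 6 in 293T, among them leaving out A549 control library 2 or 3, A549 exposed library 2 or 3, 293T control library 1 or 2 or 293T exposed library 1 or 2. The summed level of the members on chromosome 19 went from 304 ± 3.21 to 291 ± 3.54 FPKM in A549 and from 407 ± 2.06 to 385 ± 6.82 in 293T. The last stretch of the long arm, from ZNF579 to the end, was singled out after the values were seen. It holds 17 members, of which 0 rose and 10 fell (58.8%) in A549 and 2 rose and 9 fell (52.9%) in 293T. ZNF71, ZNF134, ZNF551, ZNF580, ZNF584, ZNF586, ZNF776 and ZNF865 fell there in both lines. The 12 other protein-coding genes at 3 FPKM or more in that stretch counted 0 rises and 4 falls in A549 and 1 and 6 in 293T. The 28 members on the rest of chromosome 19 counted 7 rises and 10 falls (35.7%) in A549. In 293T the 28 counted 1 and 8 (28.6%). Of all genes tested, 13.3% rose and 26.9% fell in A549, and 13.7% and 24.2% in 293T. Neighbours elsewhere on the chromosome went different ways. Beside ZNF227, which rose in A549 by 0.62, ZNF226 fell by 0.19 and ZNF224 by 0.19, ZNF234 rose by 0.19, and ZNF45 had -0.04. In 293T ZNF226, ZNF224 and ZNF45 fell by 0.32, 0.20 and 0.28. Leaving out single libraries ended the calls of ZNF224 and ZNF45, and of ZNF226 and ZNF234 in A549. ZNF274, known to bind the 3′ ends of zinc finger genes and to recruit SETDB1 there, fell by 0.23 in A549 and had -0.17 in 293T (adjusted p = 0.051, limma). Its A549 fall was not called with median centring or quantile normalization, and its 293T value was called in 6 alternatives. ZNF507, these neighbours and ZNF274 were named after their values were seen.

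**Figure D5:**
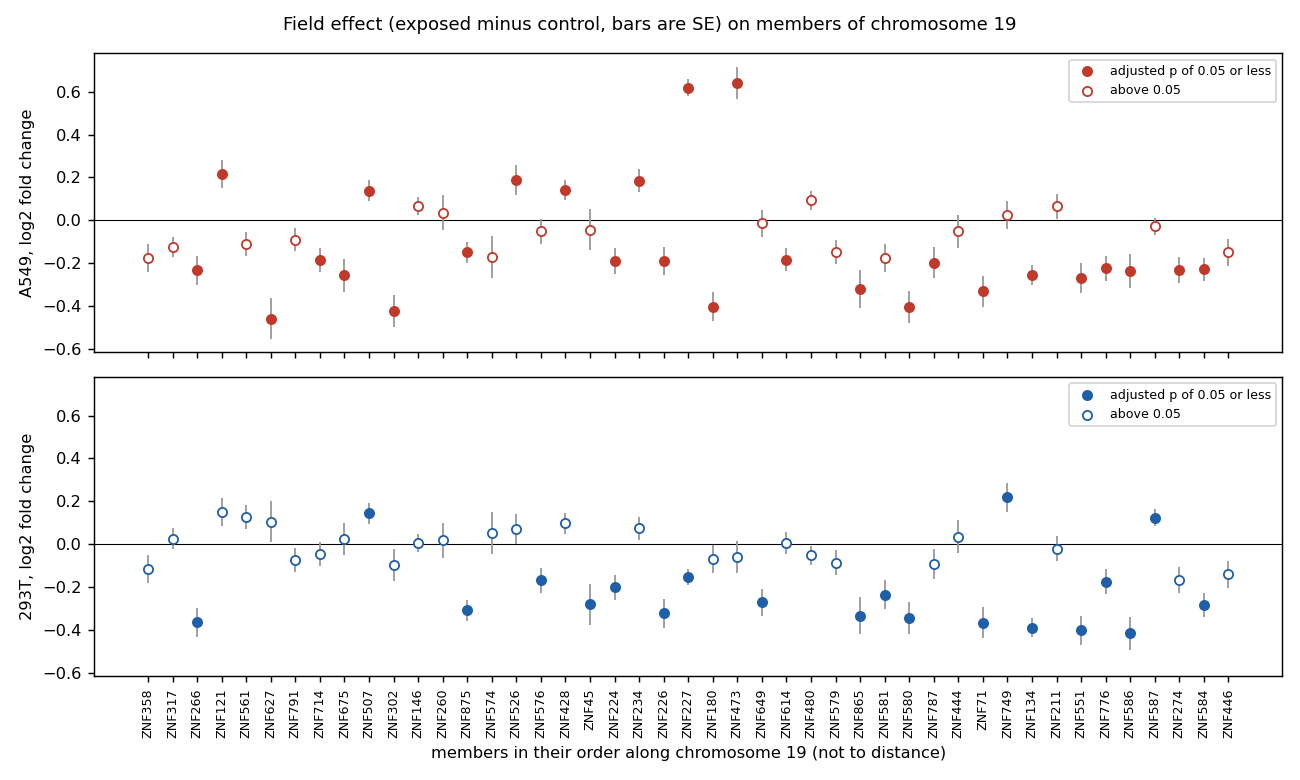
Log2 fold change on exposure (points, with SE) of the 45 members on chromosome 19 in A549 (top) and 293T (bottom), placed in chromosomal order but not to distance, filled where the adjusted p was 0.05 or less. ZNF227 and ZNF473 stand highest in A549 and near or below 0 in 293T, and the filled points at the right end lie below 0 in A549 and, except for ZNF749 and ZNF587, in 293T.

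Of the 64 members with a KRAB box, 12 rose and 21 fell in A549 and 16 and 18 in 293T, with medians of -0.04 and 0.01. Of the 97 in which none was found, 28 rose and 20 fell in A549 and 26 and 17 in 293T, with medians of 0.02 and 0.04. Without 293T control library 1 or exposed library 1 the falls among KRAB members in 293T numbered 11. KRAB members are unevenly placed, making up 57.8% of the members on chromosome 19 and 32.5% of the rest. On chromosome 19 the 26 KRAB members counted 3 rises and 14 falls in A549 and 2 and 12 in 293T. The 38 KRAB members elsewhere counted 9 and 7 in A549 and 14 and 6 in 293T. The direction for KRAB members as a whole turned with the scaling: after quantile normalization 20 rose and 6 fell in A549 and 18 and 11 in 293T, and after median centring 16 and 8 and 18 and 14. For members without a KRAB box the sum without mitochondrial genes gave 22 rises and 27 falls in A549. The 4 KRAB members with the smallest adjusted p were ZNF227, ZNF473, ZNF436 and ZNF184, described above. By finger number, the 70 members with 10 or more fingers counted 20 rises and 20 falls in A549, the 61 with 4 to 9 fingers 14 and 14, and the 30 with 0 to 3 fingers 6 and 7. In 293T the counts were 19 and 16, 17 and 15, and 6 and 4. As shares, rises ran from 20.0% to 28.6% in A549 and from 20.0% to 27.9% in 293T, beside 13.3% and 13.7% of all genes tested, and falls from 23.0% to 28.6% and from 13.3% to 24.6%, beside 26.9% and 24.2%.

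Members with known roles were described by 3 lists: ribosomes, RNA and ubiquitin, chromatin and corepressor complexes, and promoter-binding factors. Over all genes tested, 13.3% rose and 26.9% fell in A549 and 13.7% and 24.2% in 293T. Of 12 members on the list for ribosomes, RNA and ubiquitin, 4 rose and 1 fell in A549 (33.3% and 8.33%) and 3 rose and 2 fell in 293T. ZNF638 (NP220), which binds DNA and RNA and silences unintegrated retroviral DNA, had 21.6, 22.4 and 21.8 FPKM in A549 controls and 26.1, 24.2 and 27.2 after exposure. In 293T it had 30.7, 31.6 and 31.0 against 39.6, 40.5 and 36.8. Its groups did not overlap, and it rose by 0.22 and 0.32. The splicing-associated ZNF830 rose by 0.21 and 0.32, and the RNA-binding ZNF106 by 0.22 in A549 with 0.04 in 293T. ZNF622, which takes part in the assembly of the large ribosomal subunit, had 0.05 in A549 and rose by 0.24 in 293T, and that difference of -0.18 passed (adjusted p = 0.044).

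Of 12 members on the list for chromatin and corepressor complexes, 4 rose and 5 fell in A549 (33.3% and 41.7%) and 4 rose and 2 fell in 293T (33.3% and 16.7%). ZNF592 and ZNF687, which share a complex with ZMYND8, split: ZNF592 had 0.02 in A549 and rose by 0.28 in 293T, while ZNF687 fell by 0.27 in A549 and had -0.03 in 293T. Both differences passed, at -0.26 and -0.24 (adjusted p = 0.012 and 0.047, limma), and that of ZNF687 lost the call in most alternatives, as did that of ZNF622. Of 10 promoter-binding factors, 4 rose and 3 fell in A549 (40.0% and 30.0%) and 4 rose and 2 fell in 293T (40.0% and 20.0%). The BTB-domain factor ZNF131 had 6.59, 6.98 and 6.66 FPKM in A549 controls and 7.90, 8.28 and 8.11 after exposure, and 9.29, 9.17 and 9.34 against 11.2, 11.4 and 11.5 in 293T. Its libraries were tightly grouped and did not overlap, with rises of 0.23 (SE 0.03) and 0.27 (SE 0.03). ZNF263 rose by 0.13 and 0.21, with 34.3% of its exon bases shared with other genes. ZNF395 fell by 0.27 and 0.13, with 34.9% of its exon bases shared with FBXO16. For the chromatin list in A549 quantile normalization gave 5 rises and 3 falls and median centring 5 and 4. For the ribosome list in 293T quantile normalization gave 7 rises and 1 fall.

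Partners of KRAB silencing and more general heterochromatin factors were followed as 1 list of 24 genes. Of these, 3 rose and 7 fell in A549 and 7 rose and 7 fell in 293T. The A549 shares, 12.5% and 29.2%, lie near the 13.3% and 26.9% of all genes tested, and those in 293T were 29.2% each way beside 13.7% and 24.2%. The A549 split turned to 6 and 6 after quantile normalization and 7 and 5 after median centring. TRIM28, the corepressor that the KRAB box binds, went from 161 to 143 FPKM in A549 and from 180 to 161 in 293T, falls of 0.17 and 0.16 (adjusted p = 0.00021 and 0.00039, limma). CHD4, the remodeller of the NuRD complex, fell by 0.41 in A549 and 0.20 in 293T, and the methyltransferase EHMT2 by 0.29 and 0.12. CBX5, which encodes heterochromatin protein 1 alpha, rose by 0.13 and 0.36. The 293T fall of EHMT2 was not called with median centring, quantile normalization or without 293T control library 1 or 2 or exposed library 2. The A549 rise of CBX5 was not called with the sum without mitochondrial genes or without A549 control library 2 or exposed library 1. SETDB1 fell by 0.18 in each line, SUV39H1 by 0.30 and 0.26 and EHMT1 by 0.25 and 0.27, and ATF7IP2 rose by 0.72 and 0.63 from levels below 1 FPKM. These last 4 were named after their values were seen, as were the remaining called genes of the list. CHD3 rose by 0.23 in A549. In 293T MORC3, MORC2, ATF7IP, UHRF1 and HDAC1 rose by 0.30, 0.26, 0.24, 0.16 and 0.10. DNMT1 fell by 0.11 in A549 and WIZ by 0.13 in 293T. The calls of these remaining genes were not followed through the alternatives. The SETDB1 call was lost with quantile normalization in both lines and median centring in A549. It was also lost without A549 control library 2 or 3 or exposed library 1, and in 293T without control library 2 or exposed library 1. The member ZNF410, best known as an activator of CHD4, rose by 0.18 in A549 and had 0.13 in 293T (adjusted p = 0.051, and called in 10 alternatives), with 45.9% of its exon bases shared with other genes. It too was named after its values were seen. RSRP1, a gene named in the title of the study, rose by 1.31 in A549 and 0.80 in 293T, more than any member.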

How the data were processed

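The authors deposited 1 table of FPKM values per gene and library for 12 libraries, 3 in each of 4 groups. GRCh38 is the build and fastp, HISAT2 and HTSeq the tools listed, with no versions, per the submitters' processing notes. The FPKM values gave back whole counts within 0.01 for every gene, and these recovered counts served for depth and for an alternative test. Genes at 0.5 FPKM or more in at least 3 libraries were kept, 13811 of 26348. All 4 groups were fitted together on log2(FPKM + 1) with limma 3.58.1 in R 4.3.3, with Benjamini-Hochberg adjustment over all genes tested and a threshold of 0.05. Fold changes on this scale understate the change of low genes. All 162 members passed the filter, 125 of them at 3 FPKM or more in both controls. The fit was tested on simulated data.

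Exon overlap, fingers and KRAB boxes came from GENCODE 29 coding sequences translated with Biopython 1.88, and promoters from RefSeq (GRCh38.p14). A KRAB call from a RefSeq protein had been planned, but protein sequences were not used here. Members and gene lists were chosen with earlier results of these data known. Named genes were the 10 largest falls and 6 largest rises per line among called members whose libraries did not overlap, and the 5 largest differences each way between the lines and between the controls. The 6 highest members, the 3 on each side of 3 FPKM, and the 4 smallest adjusted p of each role list, the KRAB members and the KRAB partners were added. Alternatives were TPM, quantile normalization, median centring, a sum without mitochondrial genes, a pseudocount of 0.1, no filter, a mean of at least 1 FPKM, no variance trend, limma-voom on recovered counts, each line alone, a replicate block, each library left out, and the third exposed library of both lines left out together.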

Additional observations from a re-analysis of the deposited data

Results flagged for a closer look

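In 14 of the named members the 2 field effects differed by a test of the difference itself (limma, Benjamini-Hochberg adjustment over all genes tested). Most of these were named because their difference was among the largest that passed, so the count of 14 largely reflects that choice. Of all 162 members 13.6% passed this test, beside 12.5% of all genes tested. The A549 effect minus the 293T effect was 0.77 on the log2 scale for ZNF227, 0.70 for ZNF473, 0.39 for ZNF319, 0.34 for ZNF337 and 0.32 for ZNF777. It was -0.56 for ZNF503, -0.56 for ZNF627, -0.39 for ZNF22, -0.36 for ZNF711, -0.33 for ZNF180, -0.28 for ZNF174, -0.26 for ZNF592, -0.24 for ZNF687 and -0.18 for ZNF622. ZNF227, ZNF503, ZNF337 and ZNF22 are among those that share exon bases with another annotated gene, and they are not the only ones. Of the 86 members with no exon overlap, the difference was called higher in 1 and lower in 4.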

How the results depend on the processing

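The count of members that fell in A549 went from 42 to 25 with median centring and 20 with quantile normalization, and that in 293T from 35 to 23 with quantile normalization. Counts over all genes tested moved too. Across the alternatives that did not leave out a single library, their falls ran from 2525 to 4474 in A549 and from 2620 to 3781 in 293T. Their rises ran from 1432 to 2695 and from 1577 to 2403. Members with a lower A549 than 293T effect went from 15 to 9 with median centring, 5 without a filter, 8 with a pseudocount of 0.1 and 7 with quantile normalization. Among the members at 10 FPKM or more, 33.3% rose in A549 and 38.9% in 293T, 11.1% fell in 293T, and between the controls 8.33% were higher and 80.6% lower in A549. With each library left out in turn, 32 to 41 members rose and 32 to 44 fell in A549, and 31 to 43 rose and 24 to 36 fell in 293T. The difference was higher in 6 to 10 and lower in 5 to 12, and the controls differed upward in 23 to 28 and downward in 110 to 114. The cause of these shifts was not tested. Among the named genes followed through the alternatives, none with a called value changed sign, but summaries did. The members' median in A549 went from -0.02 to 0.04 with median centring and with quantile normalization. That of the KRAB members went from -0.04 to 0.01 and 0.02. The A549 calls of ZNF586, ZNF551, ZNF266, ZNF594, ZNF263, ZNF711, ZNF507, ZNF224, ZNF226, ZNF234, ZNF274, SETDB1 and CBX5 were lost under at least 1 alternative. Those of ZNF217 and ZNF703 in A549 were lost too. So were the 293T calls of ZNF251, ZNF367, ZNF395, ZNF337, ZNF507, ZNF224, ZNF45, ZNF589, ZNF219, ZNF649, SETDB1 and EHMT2. The differences of ZNF627 (no filter), ZNF22 (limma-voom), ZNF180, ZNF174, ZNF711, ZNF622, ZNF687 and CHD4 were lost as well. With the replicate block 38 members rose and 42 fell in A549, 39 and 34 in 293T, and the difference was higher in 7 and lower in 10. Same-numbered libraries did not deviate together, with correlations across genes of -0.14 to 0.00. These values cannot tell whether the samples were collected in pairs, which the labels do not say.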

Other observations

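Related zinc finger families at 3 FPKM or more were counted in the same way. Of all genes tested, 13.7% rose and 24.2% fell in 293T, and 13.3% rose and 26.9% fell in A549. Of 24 ZBTB genes, which pair fingers with a BTB domain, 12 rose and 1 fell in 293T (50.0% and 4.17%). In A549, 8 rose and 7 fell (33.3% and 29.2%). The 293T count was 12 and 1 under every scaling tried, while quantile normalization gave 12 and 6 in A549. Of 8 ZFP genes, 3 rose and 0 fell in 293T and 1 rose and 2 fell in A549. Of 6 ZSCAN genes, 2 rose and 0 fell in 293T and 3 and 1 in A549. The 226 numbered ZNF genes tested with a mean below 3 FPKM counted 43 rises and 36 falls in 293T and 19 and 46 in A549.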
